A study of Mus musculus with 37 samples.

Results

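Bacteria that lack a cell wall or live with reduced genomes make up a small, little-cultured share of the mouse gut community. Read counts of 5 such lineages were followed here in stool of adolescent C57Bl/6 mice: the genera Anaeroplasma and Ureaplasma, the order-level groups RF39 and Gastranaerophilales, and the phylum Patescibacteria. Members were the rows of the deposited taxonomy that carry these names, without chloroplast rows, and they numbered 111 of 6100 sequence variants. Anaeroplasma held 24 variants, Ureaplasma 1, RF39 37, Gastranaerophilales 28 and Patescibacteria 21. Together they took 226768 reads, 1.405% of the reads kept.

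The study sequenced the V3 to V4 stretch of 16S rRNA genes, a taxonomic marker of bacteria, to ask whether alcohol before birth changes the gut microbiota and whether the sexes differ. Dams of the prenatal alcohol exposure (PAE) group drank 10% ethanol over the first 10 days of pregnancy and water afterwards, and dams of the control group drank water throughout. Each library held stool DNA of 1 label: control male (n = 11), control female (n = 7), PAE male (n = 10) or PAE female (n = 9). Libraries carry numbers in the labels, which run over controls (1 to 10), PAE (11 to 29) and controls again (30 to 37). Where runs are cut further below (11 to 19 and 20 to 29, 30 to 33 and 34 to 37), the cut is not in the labels: it was chosen with results of these data known, and number 20 is the first PAE male with the genus Robinsoniella described below. The labels name no allele or transgene. They tie no library to a dam, litter, cage or batch, so p-values measure the spread between these libraries. Amplicon shares are relative: more reads of 1 lineage and fewer of all others cannot be told apart.

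Anaeroplasma is a strictly anaerobic wall-less genus first known from the rumen, and Ureaplasma is a wall-less genus that lives on urea and is best known from urogenital and respiratory mucosa. RF39 is an uncultured order of the class Bacilli whose reconstructed genomes are small. Gastranaerophilales are non-photosynthetic relatives of the Cyanobacteria that live by fermentation in animal guts and keep a cell wall. Patescibacteria have very small cells and genomes, and their class Saccharimonadia is known to live attached to other bacteria. For 109 of the 111 member variants the species entry was absent, uncultured, unidentified or a metagenome.

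Total reads per library ranged from 102672 to 1813237 with a median of 293111. In 9 libraries the genus Robinsoniella was present and the community was poor: control females 3 and 10, PAE males 20 to 24 and PAE females 27 and 28. They held 193 to 289 variants after rarefying to 102655 reads, against 369 to 668 in the other 28. The libraries numbered 30 to 33 and 34 to 37, all controls, also differed from the rest in the members they held. Several results are also given without the libraries with Robinsoniella or without libraries 34 to 37. Estimates without libraries 30 to 33 are not given. No pair of libraries in a group agreed within counting noise, so none was treated as a repeat of another.

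Over all 37 libraries the members ranged from 0.0105% to 4.93% of reads. Their sum averaged 1.33% in control males and 1.04% in PAE males, and 1.85% in control females and 1.80% in PAE females. Anaeroplasma contributed 129544 reads, Gastranaerophilales 90659, Ureaplasma 3385, RF39 1741 and Patescibacteria 1439. Anaeroplasma had reads in 37 libraries, Gastranaerophilales in 35, RF39 in 21, Patescibacteria in 13 and Ureaplasma in 4. Most member variants were rare: 83 occurred in a single library and 85 had under 20 reads in all. Variants are numbered within each lineage by their total reads. The share of each lineage in each library is plotted by label number.

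**Figure D1:**
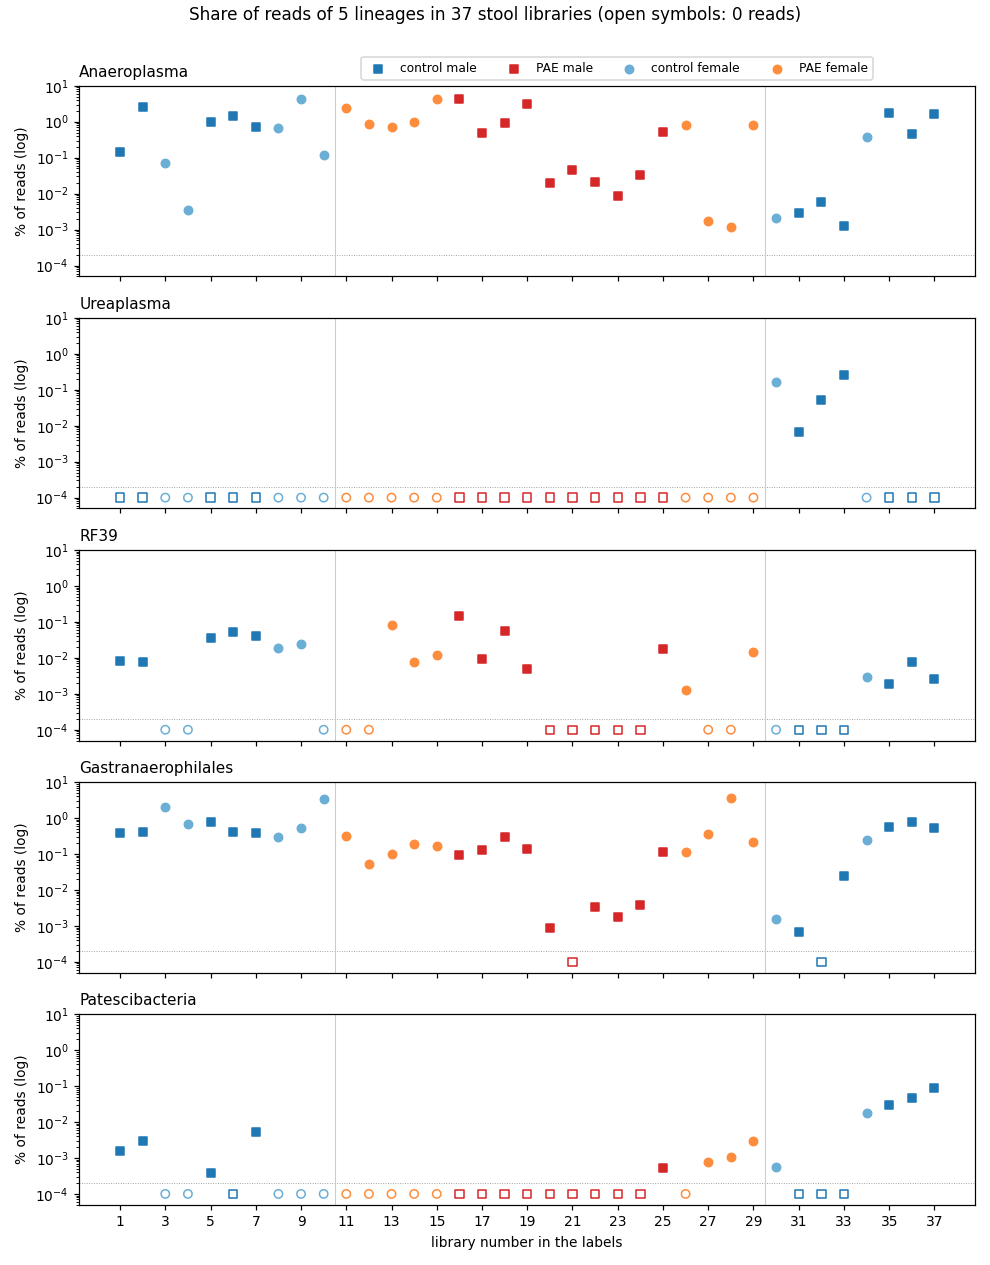
Percent of reads (log axis) of 5 lineages in 37 stool libraries, ordered by label number; squares are males, circles females, open symbols at the bottom are libraries with 0 reads, and grey vertical lines part the runs of control and PAE numbers. Ureaplasma has filled symbols at numbers 30 to 33, Anaeroplasma is below 0.006% there, and Patescibacteria is highest at 34 to 37, up to 0.0873%.

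Anaeroplasma, the most abundant lineage, spread widely within each of the 4 groups, which overlapped. In control males it ranged from 0.00128% to 2.60% of reads (median 0.701%), and in PAE males from 0.00866% to 4.17% (median 0.272%). The means were 0.879% ± 0.873 (SD, n = 11) and 0.939% ± 1.485 (SD, n = 10). In control females it ranged from 0.00217% to 4.39% (median 0.118%) and in PAE females from 0.0012% to 4.33% (median 0.829%), with means of 0.803% ± 1.60 (SD, n = 7) and 1.23% ± 1.37 (SD, n = 9). Without control female 9, the highest, the control female mean was 0.205% ± 0.263 (SD, n = 6). Groups overlapped in both sexes, and 3 of 10 PAE males and 7 of 9 PAE females lay above the control median of their sex.

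The low end of that spread was held by particular libraries. In PAE males 20 to 24 Anaeroplasma took 0.00866% to 0.0445%, whereas PAE males 16 to 19 and 25 held 0.4996% to 4.17%. PAE females 27 and 28 held 0.00172% and 0.0012%, against 0.724% to 4.33% in the other 7 PAE females. Controls 30 to 33 had 10 to 21 reads each, and control female 4 had 8. Among the 9 libraries with Robinsoniella the highest value was 0.118%, in control female 10.

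A single sequence made up nearly all Anaeroplasma reads in any library, but not the same one. Variants 1 and 2 together held 99.9% of the lineage's reads. Variant 1 led in 33 libraries, with at least 83.3% of Anaeroplasma reads in each. Variant 2 led in the other 4, control female 34 and control males 35 to 37, with 99.5% to 99.9%. There it had 6775, 9081, 2794 and 10853 reads, beside 25, 16, 9 and 14 reads of variant 1. Outside those 4 libraries variant 2 had 4 reads each in PAE female 15 and PAE males 20 and 23, and 7 in PAE male 25. The control male mean of variant 1 was 0.534% ± 0.848 and that of variant 2 was 0.343% ± 0.668 (SD, n = 11), so the genus sums sequences that lay in different libraries. Variant 3 had reads in a single library.

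**Figure D2:**
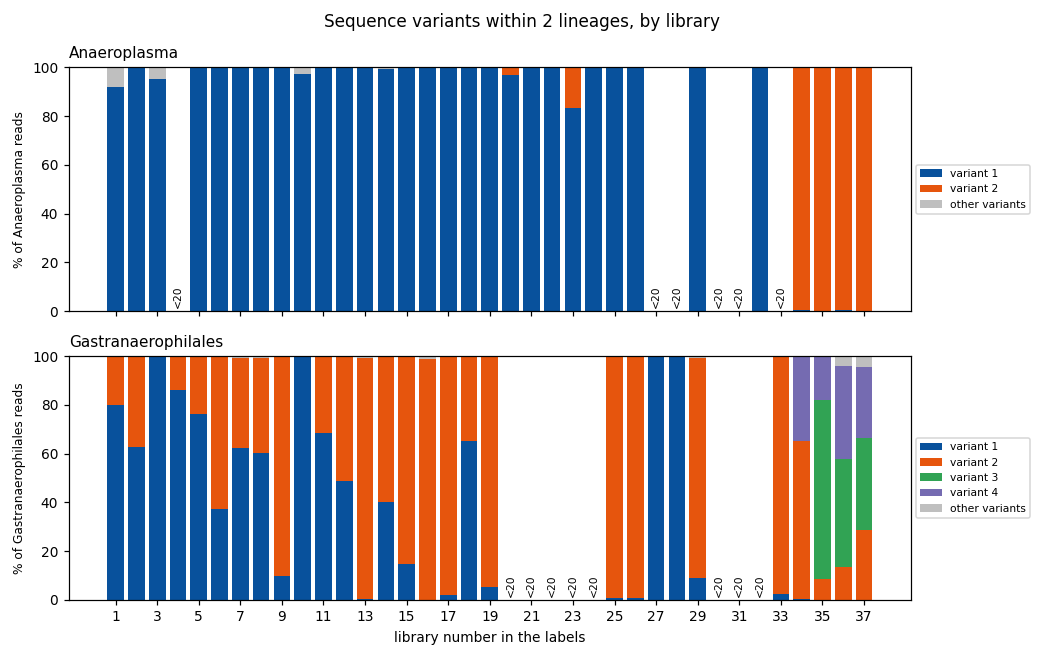
Stacked bars give the percent of Anaeroplasma reads (upper) and Gastranaerophilales reads (lower) that each sequence variant held in each library; libraries with under 20 reads of the lineage are marked and left blank. In libraries 34 to 37 variant 2 holds at least 99.5% of Anaeroplasma reads, and Gastranaerophilales variant 1 is near 0.

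In edgeR's quasi-likelihood test with 4 group means, 44 lineages and orders had at least 5 reads in at least 7 libraries. A call is a Benjamini-Hochberg adjusted p under 0.05 over these 44. Log2 fold changes are given with a standard error (SE) taken as the size of the fold change over the square root of F. For PAE against control in males the Anaeroplasma estimate was 0.04 (SE 1.17, edgeR adjusted p = 0.995). In females it was 0.46 (SE 1.36, edgeR adjusted p = 0.985), and the difference between the sexes was -0.41 (SE 1.79, edgeR adjusted p = 0.901). These SEs leave room for changes of several fold in either direction, and the sign in males turned with the scaling (-0.03 with TMMwsp). Without the 9 libraries with Robinsoniella the estimates were 1.09 (SE 1.20, edgeR adjusted p = 0.768) in males and 0.37 (SE 1.37, edgeR adjusted p = 0.918) in females.

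Ureaplasma was a lineage of 4 libraries. Its 1 variant had 1104 reads in control female 30 and 30, 192 and 2059 reads in control males 31, 32 and 33, which is 0.160%, 0.00684%, 0.0535% and 0.263% of their reads. The other 33 libraries, 14 controls and all 19 PAE libraries, had 0 reads. Group means were 0.0294% ± 0.0792 in control males (SD, n = 11) and 0.0228% ± 0.0603 in control females (SD, n = 7). Against 3 reads over the group, the most that a count of 0 allows, the mean share was at least 325-fold lower in PAE males and at least 332-fold lower in PAE females. This bound covers counting error only.

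Among controls, 8 of 11 males and 6 of 7 females were also at 0, so all positive libraries carry adjacent numbers. Without libraries 30 to 33 no Ureaplasma read remains. Ureaplasma missed the minimum of 5 reads in 7 libraries and was not tested. The same 4 libraries had 10 to 21 Anaeroplasma reads and 0 RF39 reads. Genera listed as reagent contaminants were Sphingomonas, Ralstonia, Pseudomonas, Acinetobacter, Bradyrhizobium, Methylobacterium-Methylorubrum, Burkholderia-Caballeronia-Paraburkholderia, Cutibacterium, Corynebacterium, Staphylococcus, Stenotrophomonas, Delftia and Micrococcus. They took 0.00411% to 0.00640% of reads in the 4 libraries. Group means were 0.0109% in control males, 0.0215% in PAE males, 0.0153% in control females and 0.0240% in PAE females. The order Staphylococcales, which holds Staphylococcus, averaged 0.0189% in PAE males and 0.0159% in PAE females. Whether Ureaplasma was a contaminant was not tested.

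RF39 was rare and patchy. It was found in 8 of 11 control males, from 0.0019% to 0.0529%, and in 5 of 10 PAE males, from 0.00502% to 0.147%. It was found in 3 of 7 control females, up to 0.0246%, and in 5 of 9 PAE females, up to 0.0808%. Means were 0.0144% ± 0.0193 (SD, n = 11) and 0.0236% ± 0.0469 (SD, n = 10) in control and PAE males, and 0.00662% ± 0.0105 (SD, n = 7) and 0.0130% ± 0.0261 (SD, n = 9) in females. The groups overlapped in both sexes.

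The PAE males split by number: numbers 16 to 19 and 25 had 238, 18, 133, 24 and 134 RF39 reads, and numbers 20 to 24 had 0. RF39 was also at 0 in control females 3, 4, 10 and 30, control males 31 to 33 and PAE females 11, 12, 27 and 28. All 9 libraries with Robinsoniella were therefore at 0. Of the 24 libraries with at least 0.1% Anaeroplasma, 21 had RF39 reads, and of the 13 below that share 0 had any.

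In contrast to Anaeroplasma, RF39 had no leading variant. Variants 1 to 7, with 114 to 220 reads each, held 75.1% of its reads, and 11 different variants led in 1 to 3 libraries each. Variant 1 (220 reads) occurred in 11 libraries and variant 3 (213 reads) in 10, in both exposure groups. Variant 2 (218 reads) occurred in PAE males 16, 18 and 19, with 139, 65 and 14 reads, and in no other library. After rarefying, RF39 showed 2.455 ± 2.58 variants in all control males (SD, n = 11) and 2.7 ± 3.40 in all PAE males (SD, n = 10). The richest runs were control males 1 to 7 with 4.4 ± 2.41 (SD, n = 5) and PAE males 16 to 19 with 5.75 ± 3.10 (SD, n = 4). In libraries 34 to 37, 9 of the 11 RF39 variants seen had no read elsewhere, and they held 70.9% of the lineage's 127 reads there. Such variants were common in those libraries: among variants of no member lineage, 1100 of 1582 (69.5%) had no read elsewhere. By reads their share was smaller: over all variants kept, members included, they held 21.1% of all reads there.

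RF39 was not called in either sex. The log2 fold change was 0.69 (SE 1.46, edgeR adjusted p = 0.836) in males and 0.80 (SE 1.71, edgeR adjusted p = 0.976) in females. Without PAE male 16 the value in males was -0.62, and without PAE female 13 the value in females was -0.51, so each sign rested on the highest library. Without the 9 libraries with Robinsoniella the values were 1.88 (SE 1.40, edgeR adjusted p = 0.705) in males and 0.69 (SE 1.63, edgeR adjusted p = 0.918) in females.

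**Figure D3:**
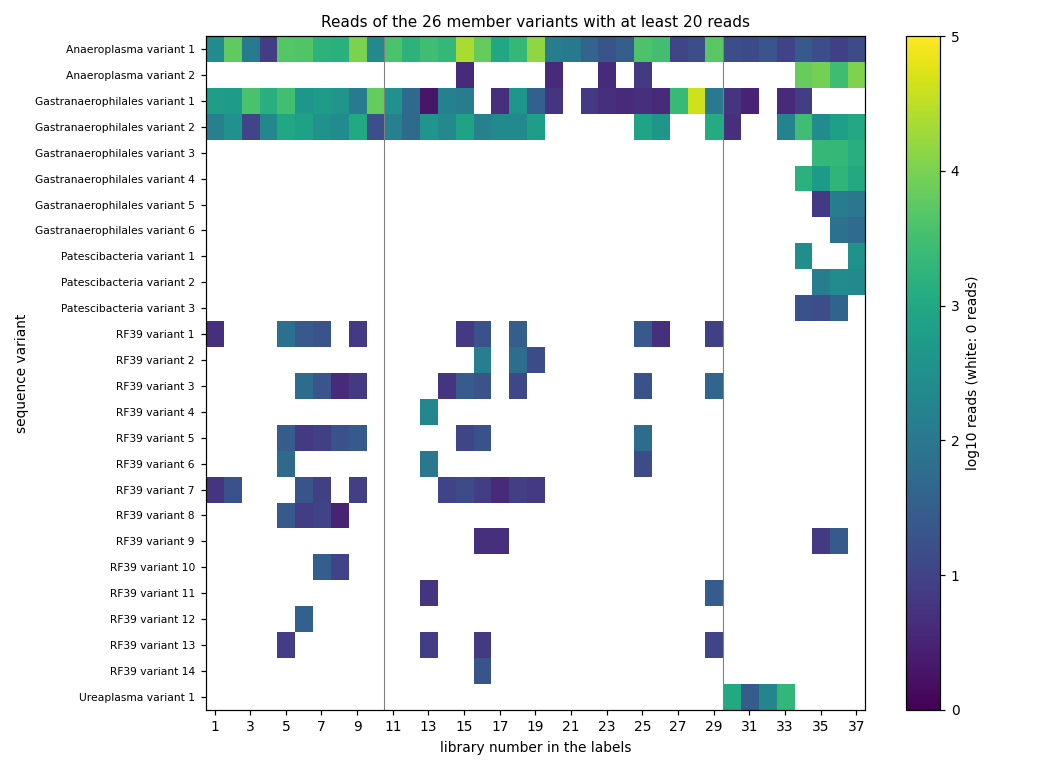
Reads (log10 colour scale) of the 26 member variants with at least 20 reads in each of 37 libraries by label number; white cells are 0 reads and vertical lines part the runs of control and PAE numbers. Gastranaerophilales variants 3 to 6 and Patescibacteria variants 1 to 3 have reads at numbers 34 to 37, Ureaplasma at 30 to 33, and RF39 is white at 20 to 24.

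Gastranaerophilales were lower in PAE males than in control males by 4.98-fold in mean share, a difference that passed no adjusted threshold. Control males held 0% to 0.794% (median 0.396%) and PAE males 0% to 0.296% (median 0.0496%), with means of 0.388% ± 0.284 (SD, n = 11) and 0.0781% ± 0.0968 (SD, n = 10). No PAE male (0 of 10) exceeded the control median, but the groups overlapped because control males 31 to 33 had 3, 0 and 185 reads. PAE males 20 to 24 had 6, 0, 7, 5 and 4 reads, and PAE males 16 to 19 and 25 had 0.0953% to 0.296%. All 10 lay below the 8 control males outside numbers 31 to 33, whose lowest value was 0.384%. That separation follows from setting aside the control males that overlapped, while the equally low PAE males 20 to 24 were kept. The log2 fold change was -2.39 (SE 1.16, unadjusted p = 0.0462, edgeR adjusted p = 0.357). Without PAE males 20 to 24 the PAE male mean was 0.154% ± 0.0812 (SD, n = 5), 2.52-fold below control males. The estimate without all 9 libraries with Robinsoniella was -1.31 (SE 1.10, edgeR adjusted p = 0.709).

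In females the lineage was spread widely and its groups overlapped. Control females held 0.00159% to 3.33% (median 0.514%) and PAE females 0.0540% to 3.50% (median 0.187%), with means of 1.02% ± 1.22 (SD, n = 7) and 0.560% ± 1.11 (SD, n = 9). PAE female 28 alone held 43977 reads, and without it the PAE mean was 0.192% ± 0.108 (SD, n = 8). The log2 fold change was -0.87 (SE 1.25, edgeR adjusted p = 0.976), and the difference between the sexes was -1.52 (SE 1.69, edgeR adjusted p = 0.714). It was 0.11 in females without control female 10 and 0.43 without control male 7, which enters through the shared spread and scaling.

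The poor libraries with Robinsoniella did not share a Gastranaerophilales level. The 4 from females held 2.05% (control female 3), 3.33% (control female 10), 0.369% (PAE female 27) and 3.50% (PAE female 28), where variant 1 made up at least 99.46% of the lineage. The 5 from PAE males held 0% to 0.0039%. For PAE males against PAE females the mean share was 7.17-fold lower, and most of the PAE female mean came from PAE female 28. Without the libraries with Robinsoniella the means were close, at 0.154% in PAE males and 0.166% in PAE females. Over all libraries the lineage estimate was -2.90 (SE 1.21, unadjusted p = 0.0218, edgeR adjusted p = 0.192). An estimate of this contrast without those libraries is not given here. DESeq2 called the contrast over all libraries (-3.38, adjusted p = 0.0154), where it called 4 of 44 rows (9.09%) and edgeR 2.27%. Between control males and control females the log2 fold change was -1.38 (edgeR adjusted p = 0.996).

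The leading variant differed between libraries. Variants 1 to 4 held 99.5% of the reads. Variant 1 (64909 reads) had reads in 31 libraries and led in 18, and variant 2 (14531 reads) had reads in 28 and led in 14. Both led in libraries of both exposure groups: variant 1 in 10 controls and 8 PAE libraries, and variant 2 in 4 controls and 10 PAE libraries. Variant 2 held 97.9% to 99.4% of the lineage in PAE libraries 13, 16, 17, 25 and 26, and 90.4% and 97.8% in controls 9 and 33. Variant 3 (5739 reads) was found in control males 35 to 37, with 2176, 2178 and 1385 reads, and led there with 37.7% to 73.4%. Variant 4, named after its values were seen, had 5010 reads, in libraries 34 to 37. In these 4 libraries the variants with no read elsewhere held 69.5% of 16027 Gastranaerophilales reads, and variant 1 had 8, 0, 0 and 0 reads. Over all variants kept, members included, those with no read elsewhere held 21.1% of all reads in the same libraries.

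Patescibacteria were the 1 member lineage that the test called. In PAE males they fell by 7.35 on the log2 scale (SE 1.83, edgeR adjusted p = 0.0116), in a table where 2.27% of rows were called. In control males 7 of 11 libraries had reads, 1063 in all, from 0% to 0.0873% (median 0.00153%), and the mean was 0.0158% ± 0.0282 (SD, n = 11). In PAE males 1 of 10 had reads: 4 reads, or 0.00054%, in PAE male 25. The ratio of mean shares was 292-fold. The groups overlapped, since control males 6 and 31 to 33 also had 0 reads.

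The call rested on a small set of libraries. Control males 35, 36 and 37 held 153, 295 and 590 of the 1063 reads, and the other 8 control males held 25 reads with a mean of 0.00129% ± 0.00197 (SD, n = 8). Without libraries 34 to 37 the phylum missed the read minimum and could not be tested. Without the 9 libraries with Robinsoniella the log2 fold change was -6.48 and not called (edgeR adjusted p = 0.340). Leaving out any 1 of the 37 libraries kept the call, with values from -8.95 (without PAE male 25) to -6.11 (without control male 37) and edgeR adjusted p from 0.00513 to 0.0270. A linear model of log-ratios with the number runs as a random block gave -2.54 (limma adjusted p = 0.776).

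In females Patescibacteria had 336 reads in 2 of 7 control libraries, 332 of them in control female 34, and 36 reads in 3 of 9 PAE libraries. Means were 0.0027% ± 0.00689 (SD, n = 7) and 0.000523% ± 0.000973 (SD, n = 9), and the log2 fold change was -2.86 (SE 1.60, edgeR adjusted p = 0.508). Without control female 34 it was 1.91 (edgeR adjusted p = 0.899). The difference between the sexes was -4.49 (SE 2.22, unadjusted p = 0.0496, edgeR adjusted p = 0.546), and it was called without control female 34 (-8.66, edgeR adjusted p = 0.0292) or with total reads as a covariate (-6.91, edgeR adjusted p = 0.0463). The fall was therefore not shown to differ between the sexes.

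By genus, Candidatus_Saccharimonas held 1349 of the 1439 Patescibacteria reads, in 3 variants. All its reads lay in control female 34 (317 reads) and control males 35, 36 and 37 (147, 295 and 590 reads). Variant 1 (660 reads) was in libraries 34 and 37, variant 2 (616 reads) in 35 to 37 and variant 3 (73 reads) in 34 to 36. Of the other Saccharimonadia, LWQ8 had 10 reads in control males 1 and 2, Saccharimonadales 7 in PAE male 25 and PAE female 27, and TM7a 3 in PAE female 29.

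The 15 variants outside Saccharimonadia had 70 reads in 8 libraries. Parcubacteria had 46 of these reads over 12 variants: 15 in rows named Parcubacteria, 14 in Candidatus_Moranbacteria, 7 in Candidatus_Kaiserbacteria, 4 in Candidatus_Nomurabacteria, 4 unclassified and 2 in Candidatus_Azambacteria. Dojkabacteria had 20 reads and WWE3 had 4. No row of these genera passed 8 reads in a library. PAE libraries 11 to 19 had 0 Patescibacteria reads, with 152720 to 525761 reads in total, and the Spearman correlation of the phylum's share with total reads was 0.52 over 37 libraries. At 102655 reads per library the phylum was detected in 6 control males, 0 PAE males, 1 control female and 1 PAE female.

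**Figure D4:**
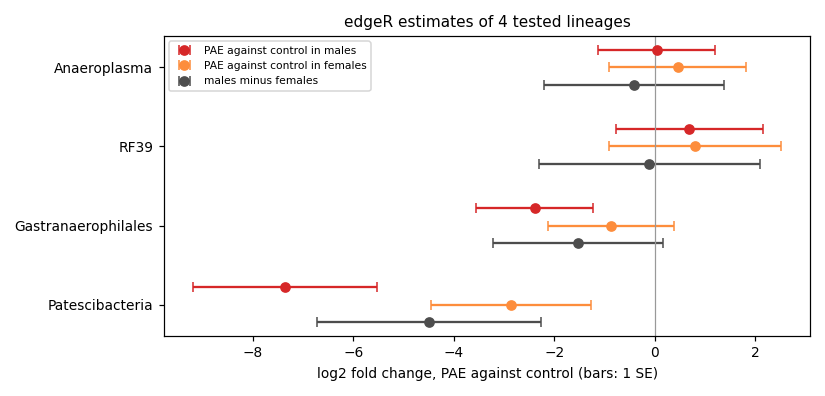
Log2 fold changes of PAE against control in males and females, and males minus females, from edgeR for the 4 lineages tested; bars are 1 SE. Patescibacteria in males (-7.35) is the value called, and the Anaeroplasma and RF39 values lie within 1 SE of 0.

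Read against the whole table, 1 of 4 tested member lineages was called in males, where 1 of 44 rows was called in all (2.27%), the same row. In females edgeR called 0 of the 4, where 2.27% of rows were called; 0 of the 4 had an unadjusted p under 0.05 and DESeq2 called 0. The median log2 fold change of the 4 was -1.17 in males, beside -0.36 over the 44 rows, and -0.21 in females beside -0.05. For the difference between the sexes edgeR called 0 of 4 and 0% of rows, with 1 of the 4 at an unadjusted p under 0.05, and DESeq2 called 0 of 4. In the phylum table, where 1 of 15 rows was called in males (6.67%), the Patescibacteria estimate was -6.21 (SE 1.69, edgeR adjusted p = 0.00953).

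Of the 111 variants, 7 passed the read minimum: Anaeroplasma variant 1, Gastranaerophilales variants 1 and 2, and RF39 variants 1, 3, 5 and 7. They are the variants spread over many libraries, so the sequences that lay mainly in libraries 30 to 33 or 34 to 37 were not tested. In males edgeR called 0 of the 7, with 0 unadjusted p under 0.05 and 0 called by DESeq2, where 67 of 553 variants were called over the table (12.1%). In females edgeR called 0 of the 7, again with 0 unadjusted p under 0.05 and 0 by DESeq2, where 68 of 553 were called (12.3%). The lowest adjusted p of a member was 0.437 in males, for Gastranaerophilales variant 1 (log2 fold change -2.61, SE 1.69, by edgeR). In females it was 0.475, for RF39 variant 5 (log2 fold change -3.23, SE 1.90, by edgeR). Each variant was called when 1 particular PAE library was left out. For the former this was PAE male 18 (-5.87, edgeR adjusted p = 0.0349), which held 452 of its 520 reads in PAE males. For the latter it was PAE female 15 (-6.22, edgeR adjusted p = 0.0363), the only PAE female with reads of it (11 reads). That fit therefore set control females against a group at 0, and its direction was fixed by the removal. The shares of all variants called in these 2 fits are not given here. For the difference between the sexes edgeR called 0 of the 7 and 0% of all 553, with 0 of the 7 at an unadjusted p under 0.05 and 0 by DESeq2.

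Gastranaerophilales variant 1 also had the largest contrast of a tested member between the sexes. In PAE males it ranged from 0% to 0.192% (median 0.00219%) and in PAE females from 0.000505% to 3.50% (median 0.0262%), so the groups overlapped. The log2 fold change of males against females was -5.09 (SE 1.93, unadjusted p = 0.0117, edgeR adjusted p = 0.382) within PAE and -3.71 (SE 1.80, unadjusted p = 0.0453, edgeR adjusted p = 0.511) within controls. EdgeR called 0% of variants between the sexes within PAE (31 of 553 at an unadjusted p under 0.05) and 0.904% within controls. DESeq2 called the PAE contrast (log2 fold change -5.60, adjusted p = 0.0110), where it called 17 of 553 variants (3.07%). Few libraries stood behind the PAE female side. Of its 47127 reads in PAE females, 43971 lay in PAE female 28 and 2358 in PAE female 27, both with Robinsoniella.

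The 4 tested lineages differed in the genera whose shares moved most like theirs over the 37 libraries, among 109 tested genera outside the members. These rank correlations are descriptions, since all shares come from the same libraries and sum to a whole. Anaeroplasma was most like Lachnospiraceae_UCG-010 and Candidatus_Arthromitus, the segmented filamentous bacteria, each with a Spearman correlation of 0.77, and least like Parasutterella (-0.77). RF39 was most like Clostridia_UCG-014 (0.84) and GCA-900066575 (0.78), and least like Parasutterella (-0.69). Gastranaerophilales were most like [Eubacterium]_coprostanoligenes_group (0.62) and Streptococcus (0.54), and Patescibacteria like unclassified Eggerthellaceae (0.55) and Massilia (0.53), a soil and water genus. Between members the correlation was 0.67 for Anaeroplasma and RF39, 0.44 for Gastranaerophilales and Patescibacteria, 0.28 for Anaeroplasma and Gastranaerophilales and 0.03 for Anaeroplasma and Patescibacteria.

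Other wall-less Bacilli were close to absent from these libraries. Acholeplasmatales other than Anaeroplasma had 5 reads in 2 libraries, and other Mycoplasmatales, Entomoplasmatales and Izemoplasmatales had 0 reads. Haloplasmatales had 2 reads. Of the walled orders of Bacilli, 5 could be tested, and edgeR called 0 of 5 in either sex. In females 0 of the 5 had an unadjusted p under 0.05, and in males 1 had, Staphylococcales (log2 fold change 2.29, SE 0.94, edgeR adjusted p = 0.341). Lactobacillales, which hold the lactic acid bacteria, were lower in PAE males than PAE females by 1.82 on the log2 scale without passing the threshold (log2 fold change -1.82, SE 0.60, edgeR adjusted p = 0.0797). Control males against control females gave a similar value (-1.50, SE 0.61, edgeR adjusted p = 0.403). The PAE effect differed between the sexes by -0.32 (SE 0.86, edgeR adjusted p = 0.901). A lower share in males that is particular to PAE was therefore not shown, and this SE does not exclude it.

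Plastids, the photosynthetic kin of Gastranaerophilales within the Cyanobacteria phylum, came to 299 reads in 24 libraries. Their mean share was 0.00159% ± 0.00191 in control males (SD, n = 11) and 0.00254% ± 0.00262 in PAE males (SD, n = 10). Other Cyanobacteria had 2 reads in 1 library. Nearly all reads of the phylum were thus Gastranaerophilales.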

How the data were processed

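Per the labels, stool DNA was amplified over V3 to V4 and sequenced in pairs of 250 cycles on an Illumina NovaSeq. Per the submitters' processing notes, cutadapt, Bowtie2 and the mouse build GRCm39 were used, with no roles given. The denoiser, the classifier and the taxonomy release are not given in these sources. The authors deposited raw counts of reads per sequence variant and library, without normalization, and a table of taxon names. The sequences themselves were not used here.

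Rows without taxonomy, unassigned, eukaryotic, chloroplast or mitochondrial (15 rows, 1522 reads) were left out. Shares are percents of the 99.99% of reads kept. Control males 5 and 6 exchange names between title and description, which leaves their group unchanged. Counts were summed per lineage or order, genus and phylum, and tested with edgeR 4.0.16 (R 4.3.3): TMM scaling, quasi-likelihood F-test, 4 group means, all 37 libraries, at least 5 reads in at least 7 libraries. The test was checked on simulated counts, where it recovered most very large changes and missed most changes of several fold. Among single sequence variants it also missed most changes of a size between these, and some of its calls were false. Folds are ratios of mean shares, or bounds against 3 reads over a group at 0. The text names all lineages and member genera, the 3 variants with most reads in each lineage, up to 3 called variants, and the 2 genera most like each lineage. Alternatives were TMMwsp, library totals, centred log-ratios (0.5 added to counts) in limma 3.58.1 with and without the number runs (cut at 10, 19 and 29 after earlier results) as a random block, DESeq2 1.42.0, other filters (10 reads in 18 libraries, or no filter), all rows, total reads as covariate, and subsets of libraries. Members, lists and tests were chosen with earlier results of these data known.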

Additional observations from a re-analysis of the deposited data

Results flagged for a closer look

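In 9 of 13 lineage and group combinations of up to 10 libraries, 1 library stood far from the others of its group. Chance gives about 1 in 20 for normally spread values. These shares are skewed and many are 0, and a lone library with reads beside others at 0 always stands apart, so the count is not set against that rate.

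Anaeroplasma held 4.39% in control female 9, where the next control female held 0.662%. Without it the control female mean was 0.205% ± 0.263 (SD, n = 6). Ureaplasma held 0.160% in control female 30 and 0 in the other 6 control females. RF39 held 0.147% in PAE male 16, where the next was 0.0566%, and 0.0808% in PAE female 13, where the next was 0.0148%. Gastranaerophilales held 0.296% in PAE male 18, where the next was 0.141%, and 3.50% in PAE female 28, where the next was 0.369%. Patescibacteria held 0.00054% in PAE male 25, which is 4 reads beside 0 in the other 9 PAE males. They held 0.0183% in control female 34, where the next was 0.000578%, and 0.00289% in PAE female 29, where the next was 0.00104%.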

How the results depend on the processing

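Values are log2 fold changes of PAE against control in the lineage table, or their difference between the sexes. Gastranaerophilales in males kept its sign and stayed uncalled in 17 of 17 alternatives, and the Patescibacteria fall in males kept its sign in 13 of 13 and its call in 9. It was not called with limma on centred log-ratios (-2.51, adjusted p = 0.124), with the number runs as a random block (-2.54), with PAE libraries 20 to 29 alone (-6.51, adjusted p = 0.0639) or without the 9 libraries with Robinsoniella (-6.48). It could not be tested under the stricter filter, in 1 sex alone, with controls 1 to 10 alone, with PAE libraries 11 to 19 alone or without libraries 34 to 37. Its difference between the sexes was called with total reads as a covariate (-6.91).

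Signs of uncalled values turned as follows. With PAE libraries 20 to 29 alone Anaeroplasma was -2.75 in males and -0.94 in females, RF39 -2.15 and -0.57, and Gastranaerophilales 0.43 in females. With controls 1 to 10 alone Anaeroplasma and RF39 in males were -0.46 and -0.43. With controls 30 to 37 alone Gastranaerophilales in females was 3.14 and the RF39 difference between the sexes 1.38. With PAE libraries 11 to 19 alone that difference was 0.09 for Anaeroplasma and 1.52 for Gastranaerophilales. Anaeroplasma in males was -0.03 with TMMwsp, -0.02 with all rows, -0.07 with total reads as a covariate and -0.18 in the genus table. RF39 in males was -0.09 with limma, and its difference between the sexes 0.06 under the stricter filter. Of alternatives chosen after seeing the data, leaving out the libraries with Robinsoniella gave differences between the sexes of 0.72 for Anaeroplasma and 1.18 for RF39. Leaving out libraries 34 to 37 gave -0.16 for Anaeroplasma in females, and differences of 0.84 for Anaeroplasma and 0.55 for RF39. The cause was not tested.

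With 1 library left out in turn, values in males, in females and of their difference ranged from -0.28 to 0.60, 0.14 to 2.45 and -2.34 to 0.22 for Anaeroplasma. They ranged from -0.62 to 1.46, -0.51 to 1.74 and -1.40 to 1.21 for RF39, from -2.70 to -1.95, -2.47 to 0.43 and -3.08 to 0.30 for Gastranaerophilales, and from -8.95 to -6.11, -3.18 to 1.91 and -8.66 to -4.20 for Patescibacteria.

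The count of member variants called, 0 in both sexes, was 2 in males with controls 30 to 37 alone: Anaeroplasma variant 1 (8.14) and Gastranaerophilales variant 1 (6.79), both higher in PAE. The control males of that subset had only 9 to 21 reads of the former and 0 to 4 of the latter, so the subset sets the direction. The share of all variants called in that fit is not given here. With no filter the count of member variants called was 14 in males (12 lower in PAE, 2 higher) and 3 in females (3 lower), where 539 of 6085 variants (8.86%) and 169 of 6085 (2.78%) were called. Of the 14, 8 were variants with most of their reads in libraries 34 to 37. With 1 library left out it was 0 to 1 in either sex and 0 to 0 for the difference. With no filter Ureaplasma was called in both sexes (-10.32 in males, -9.73 in females, adjusted p = 0.00318 and 0.0100), with 4 libraries behind it, where 24.2% and 21.7% of 157 rows were called. Scaling by library totals moved the median of all rows in males from -0.36 to -0.44. No paired analysis was possible because the groups share no replicate numbers. Depth limits the rarest lineages, RF39 and Patescibacteria: 0 reads there bound a share and do not show absence.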

Other observations

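Libraries 30 to 33 and 34 to 37 held member variants with many reads that had none elsewhere, while widespread variants crossed the other runs. In libraries 34 to 37, 24 of 31 member variants seen had no read in the other 33 libraries, and they held 26.8% of 47095 member reads. Of all variants seen there, members included, 1124 of 1613 had no read elsewhere, and they held 21.1% of all reads. The corresponding shares of member reads were 0.551% in libraries 1 to 10, 0.853% in 11 to 19 and 0.122% in 20 to 29, beside 0.928%, 1.47% and 0.967% of all reads. In libraries 30 to 33 it was 92.8% of member reads, all of it Ureaplasma, beside 13.6% of all reads. Runs differ in their number of libraries and in depth, and rare variants of a single library add to the counts. Member variants with at least 20 reads and no read outside their run numbered 3 in 1 to 10, 3 in 11 to 19, 0 in 20 to 29, 1 in 30 to 33 and 7 in 34 to 37. Over all variants kept, members included, these counts were 74, 32, 103, 95 and 345 in the same order, so such variants were not particular to the members.

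After rarefying, member variants per library numbered 8.46 ± 4.16 in control males (SD, n = 11), 5.4 ± 4.62 in PAE males (SD, n = 10), 6.71 ± 2.93 in control females (SD, n = 7) and 5.56 ± 3.17 in PAE females (SD, n = 9). Among PAE males, numbers 20 to 24 had 1 or 2 each and numbers 16 to 19 had 6 to 15. All other variants numbered 192 to 259 and 431 to 510 in the same libraries.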
